A study of Homo sapiens with 12 samples.

Results

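The 40 ribosome biogenesis genes described here encode proteins that make ribosomes in the nucleolus, and they were picked by symbol from 26058 genes listed in an RNA sequencing experiment on HEK293 cells. HEK293 is a human embryonic kidney line. All 40 were listed, and all 40 were among the 22067 genes tested, which had an RPKM of at least 0.5 on average over the libraries (RPKM is reads per kilobase of gene, scaled to the reads of the library). RNA was measured in unmodified HEK293 cells (WT) and in a derivative in which CRISPR had disrupted PRKAA1 and PRKAA2 (AMPK KO). These genes encode the alternative catalytic subunits of AMPK, a kinase that is activated when cellular energy is low. The sources used here do not say how many knockout clones there were. Cells of both lines were starved of serum for 24 h. A first pair of groups, WT DMSO and AMPK KO DMSO, received only the solvent DMSO at 0.025%. A second pair, WT DMSO+EGF and AMPK KO DMSO+EGF, received DMSO for 20 min and then epidermal growth factor (EGF, at a concentration given in conflicting units) for 30 min. The third pair, WT cordycepin+EGF and AMPK KO cordycepin+EGF, received 25 µM cordycepin, an adenosine analogue without the 3′ hydroxyl group, in place of DMSO before EGF. The labels give the DMSO groups as 20 min in one place and 50 min in another, so time and EGF cannot be told apart in the comparison of EGF with DMSO. Each of the 6 groups had 2 libraries, numbered 2 and 3, and the study's supplement calls them biological replicates. No label says that they came from separate cultures, so p-values measure the spread between these libraries.

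Reads on listed genes, recovered from the RPKM values, numbered 4007864 in WT DMSO replicate 3 and 12674441 to 26440486 in the other 11 libraries. WT DMSO replicates also differed most (correlation of log2 values across genes 0.918, against 0.961 to 0.977 in the other groups), and splits of the members in comparisons with WT DMSO are also given without that library. PRKAA1 was lower in AMPK KO than in WT in DMSO (log2 fold change -1.26, limma adjusted p 0.0228) and PRKAA2 had a difference of -0.73 (adjusted p 0.112). Reads remained on both genes in AMPK KO. EGF-induced EGR1 went from 2.17 to 2.64 RPKM in the 4 DMSO libraries to 106 to 230 RPKM in the 4 DMSO+EGF libraries, and FOS from 0.552 to 0.903 RPKM to 5.75 to 12.2 RPKM. Of 6 genes usually found in HEK293 cells, VIM, KRT8, KRT18 and NEFL were each at 7.998 RPKM or more in all 12 libraries, while NEFM reached at most 0.342 RPKM and PAX2 at most 0.851 RPKM. The leukocyte gene PTPRC reached at most 0.061 RPKM and the fibroblast gene COL1A1 0.354 to 1.21 RPKM.

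Ribosomes are assembled in the nucleolus, where RNA polymerase I transcribes the precursor of the large ribosomal RNAs. Small nucleolar ribonucleoproteins (snoRNPs) modify and help to cut this precursor, and separate sets of assembly factors then shape the small and the large subunit. Genes for these factors are textbook targets of the transcription factor MYC, which binds the E-box CACGTG together with MAX, so their levels are set here beside that of MYC.

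The letters around the start sites of some members are shown first because they hold this E-box. RefSeq promoter windows on GRCh38.p14, 250 bases before to 50 after a start, were found for 34 of the 40 genes (not for TCOF1, NOP58, NOLC1, RRP12, RRP1B and BOP1). The motif CACGTG reads the same on both strands. It lay in the window of 15 of the 34 (44.1%), against 1321 of 10428 tested protein-coding symbols (12.7%) and 7.26% of all 35116 windows. Among 86 other ribosome biogenesis genes with a window it lay in 26 (30.2%). In every one of the 15 it began between 31 bases before and 36 bases after the start, whereas 28.0% of the protein-coding symbols with the motif held it within 40 bases of a start. Stretches of 80 bases, 60 before and 20 from the start, are given for 6 members with the motif (in capitals) and for 2 without it, NOC4L and WDR75. They are some of the genes whose values are followed through the comparisons, together with FBL, the gene with the highest level.
RRP9 (chr3:51941885-51941964, minus strand): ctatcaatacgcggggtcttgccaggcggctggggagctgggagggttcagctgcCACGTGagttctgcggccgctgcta
FBL (chr19:39846360-39846439, minus strand): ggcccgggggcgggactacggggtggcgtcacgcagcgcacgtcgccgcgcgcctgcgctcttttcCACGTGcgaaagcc
UTP4 (chr16:69132589-69132668, plus strand): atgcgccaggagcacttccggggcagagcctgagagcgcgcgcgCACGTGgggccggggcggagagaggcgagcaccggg
UTP20 (chr12:101280045-101280124, plus strand): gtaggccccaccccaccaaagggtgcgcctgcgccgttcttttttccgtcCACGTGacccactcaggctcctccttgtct
DDX21 (chr10:68956587-68956666, plus strand): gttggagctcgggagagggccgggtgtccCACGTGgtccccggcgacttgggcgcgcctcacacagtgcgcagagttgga
PES1 (chr22:30591891-30591970, minus strand): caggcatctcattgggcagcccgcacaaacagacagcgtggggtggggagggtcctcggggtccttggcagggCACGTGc
NOC4L (chr12:132144397-132144476, plus strand): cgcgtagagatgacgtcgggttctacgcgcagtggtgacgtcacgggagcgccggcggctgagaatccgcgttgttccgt
WDR75 (chr2:189441414-189441493, plus strand): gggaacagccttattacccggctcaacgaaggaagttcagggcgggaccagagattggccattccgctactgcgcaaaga
The other 9 members with the motif were WDR43, GNL3, PNO1, NOP14, NOC3L, MYBBP1A, BYSL, GAR1 and NOP2. A match is a description of these letters and does not show binding.

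Levels of the 40 genes, as RPKM averaged over 12 libraries, ran from 2.08 for NOP2, a methyltransferase of the large-subunit RNA, to 297 for FBL, the methyltransferase of the C/D-box snoRNPs. After FBL came NOLC1, a chaperone of snoRNPs, at 93.5 RPKM, NCL (nucleolin) at 86.2, the RNA helicase DDX21 at 81.6 and MYBBP1A, a nucleolar MYB-binding protein, at 72.5. The RNA polymerase I subunits POLR1A, POLR1B and POLR1C were close to one another, at 10.7, 11.6 and 11.2 RPKM. Recovered reads on a member ran from 35 (NOP2, in its shallowest library) to 17849 (NCL), and the median member had an SE of 0.159 on a log2 fold change between single groups. Values of NOP2 and PPAN carry a further doubt, since 54.4% and 49.2% of their annotated exon bases lie in other genes on the same strand (for PPAN, P2RY11 and the readthrough gene PPAN-P2RY11). NPM1 (nucleophosmin) has 49 annotated pseudogenes and the initiation factor RRN3 has 5, so reads of these genes could have been split. Genes for snoRNAs lay inside 8 of the 40 members (20.0%), namely NOP56, NOP58, DKC1, WDR43, GNL3, PPAN, NCL and POLR1C, against 1.75% of tested protein-coding genes.

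**Figure D1:**
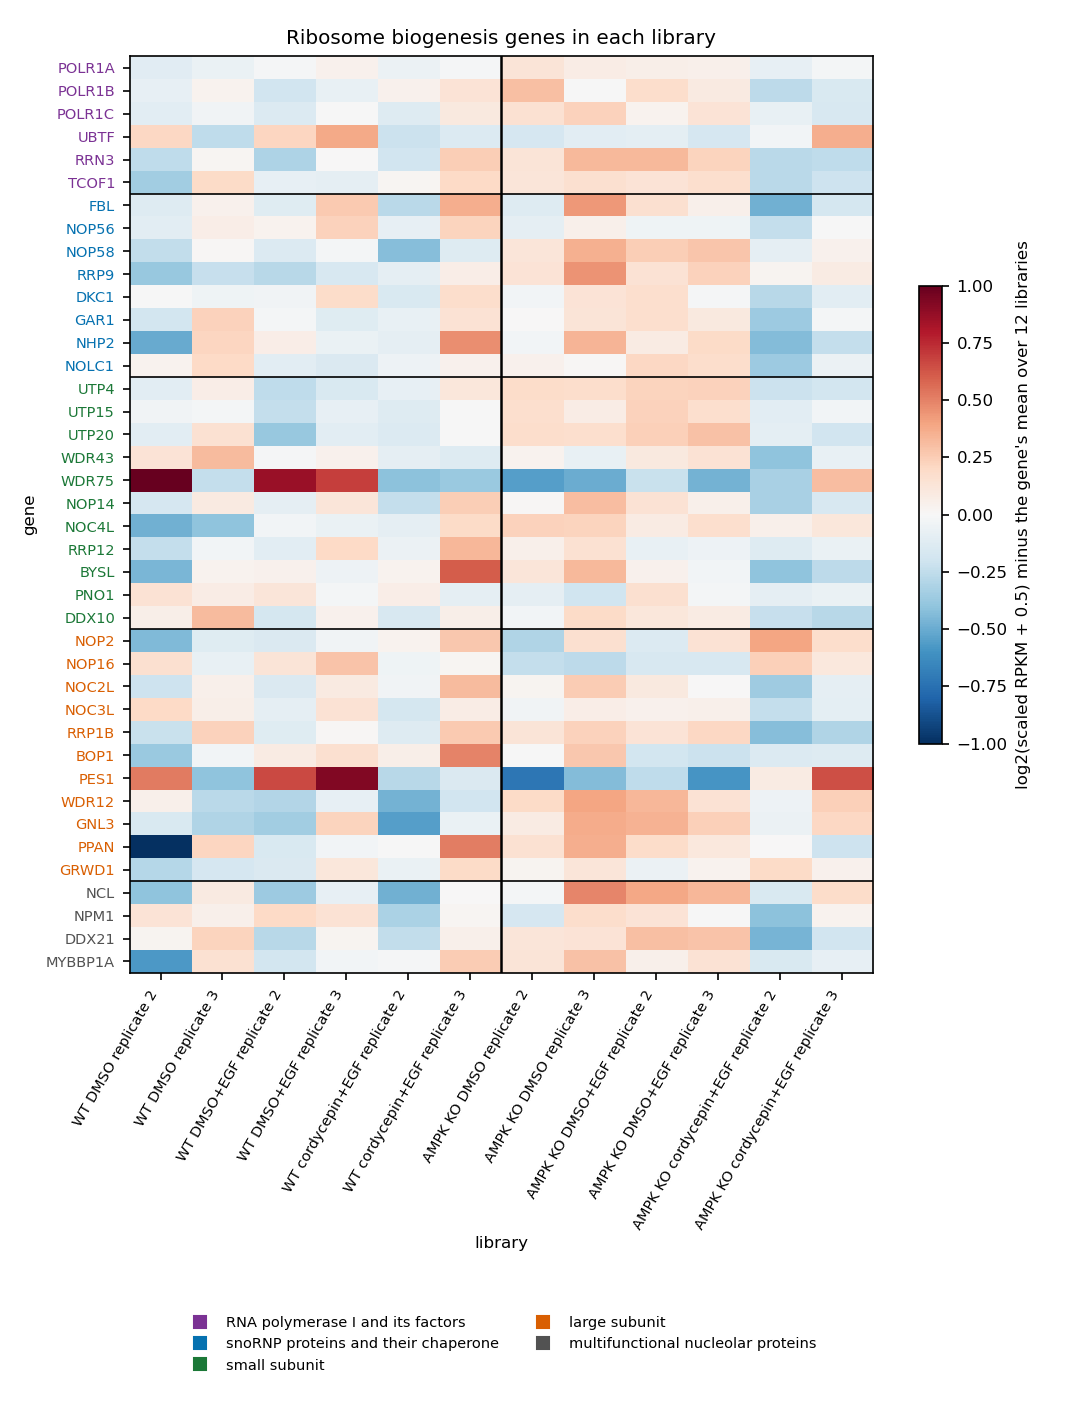
Heat map of 40 ribosome biogenesis genes (rows, coloured and ordered by role) in 12 libraries (columns), as log2(scaled RPKM + 0.5) minus the gene's own mean over the libraries, with the colour scale ending at -1 and 1. Most rows are pale, the AMPK KO DMSO and DMSO+EGF columns are mostly red, the AMPK KO cordycepin+EGF columns mostly blue, and PES1 and WDR75 run the other way.

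In the comparisons, a gene passed where limma gave a Benjamini-Hochberg adjusted p under 0.05 over the 22067 genes, and libraries were called overlapping or not on RPKM scaled to the library's upper quartile. Fold changes are differences of log2(scaled RPKM + 0.5). All 40 members are protein-coding, so shares over the 12822 protein-coding genes tested are given beside some of those over all genes. The first comparison asks whether the lines differed before any stimulus, where MYC differed. MYC RPKM was 28.1 and 20.5 in the WT DMSO libraries and 6.89 and 6.99 in the AMPK KO DMSO libraries. The log2 fold change of AMPK KO over WT was -1.74 (adjusted p 0.0434, SE 0.284), and the adjusted p was 0.144 and 0.268 without AMPK KO DMSO replicate 2 or 3 and 0.0812 without WT DMSO replicate 2. Its partner MAX stayed near 9 RPKM in these 4 libraries (8.99 to 9.43; log2 fold change 0.03) and MYCL was low (0.638 to 1.36 RPKM). Most of the ribosome biogenesis genes did not share MYC's direction. Of the 40, 30 had a higher mean in AMPK KO DMSO and 10 a lower one, with a median log2 fold change of 0.20, against 0.01 over all genes tested, of which 51% were higher. With an adjusted p under 0.05, 1 member was higher (0.281% of all genes) and 0 were lower (0.159% of all genes). At an unadjusted p under 0.05, 5 were higher (12% of all genes) and 2 lower (9.29% of all genes), so these counts were close to the background. Both AMPK KO libraries lay above both WT libraries in 15 members (25.3% of all genes) and below them in 5 (23.2% of all genes). By the study's own rule, an unadjusted p of at most 0.05 and a log2 fold change of at least 1, 0 members were higher (1.98% of all genes) and 1, WDR75, was lower (1.93% of all genes).

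NOC4L (ENSG00000184967, chr12:132144457-132152473 on GRCh38), which pairs with NOP14 in the small-subunit precursor, was the member that passed. Its RPKM was 22.0 and 23.5 in WT DMSO and 36.7 and 37.3 in AMPK KO DMSO. The groups were far apart beside the spread within each, with a log2 fold change of 0.67 (adjusted p 0.0499, SE 0.112). This call sat at the threshold, and its adjusted p ran from 0.0183 to 0.416 over the 14 alternatives tried. The call was lost without AMPK KO DMSO replicate 2 (adjusted p 0.155) or 3 (0.292) and without WT DMSO replicate 2 (0.0775). Next was RRP9 (ENSG00000114767, chr3:51933429-51941904), the U3 snoRNA-binding protein, with 12.8 and 14.3 RPKM in WT DMSO and 18.7 and 23.7 RPKM in AMPK KO DMSO. Its log2 fold change was 0.60 (adjusted p 0.0687, SE 0.129). At the other end stood WDR75, a subunit of the complex that loads first on the small-subunit precursor, with a log2 fold change of -1.02 (adjusted p 0.196, SE 0.399), and PES1 (pescadillo), a large-subunit factor, with -0.63 (adjusted p 0.253, SE 0.296).

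By role, 5 of 6 polymerase I genes, 7 of 8 snoRNP genes, 7 of 11 small-subunit genes, 8 of 11 large-subunit genes and 3 of 4 multifunctional nucleolar genes had a higher mean in AMPK KO DMSO. The polymerase I exception was UBTF, the factor that opens ribosomal DNA (-0.11). NOLC1 was the snoRNP exception (-0.09). The shallow library mattered for single genes. Without WT DMSO replicate 3, 7 members passed: RRP9, TCOF1, NOC4L, MYBBP1A and PPAN higher (7.65% of all genes), and WDR75 and PES1 lower (6.24% of all genes). Calls over all genes thus rose as well, and the split over the 40 was 31 higher and 9 lower. Without WT DMSO replicate 2, 0 members passed and the split was 25 higher and 15 lower, with a median of 0.08.

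**Figure D2:**
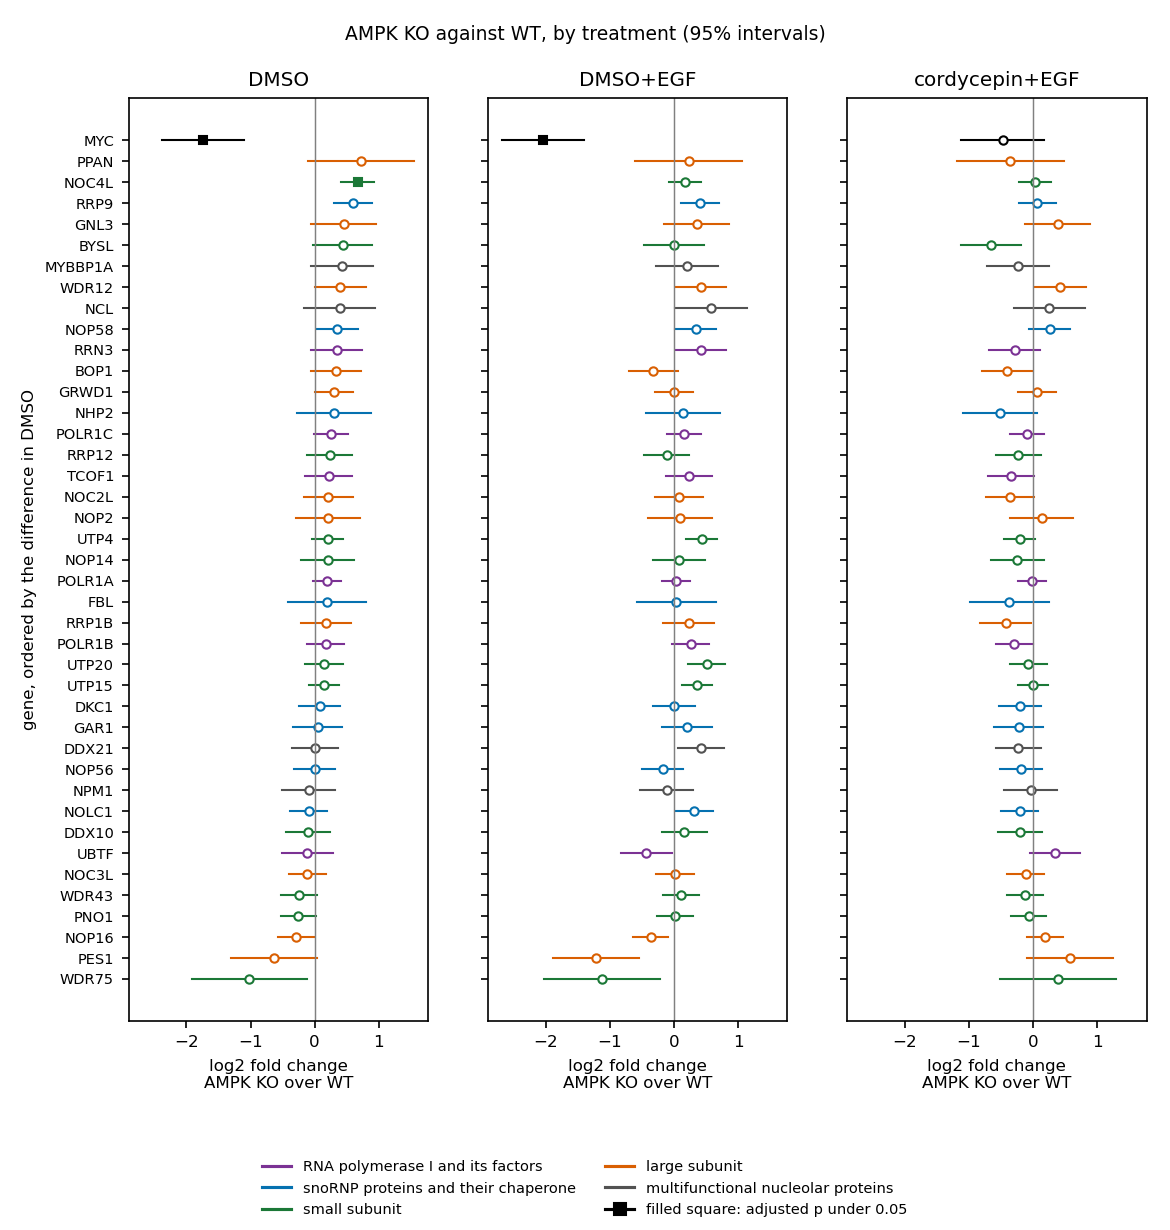
Log2 fold change of AMPK KO over WT with its 95% interval for MYC and 40 ribosome biogenesis genes, in DMSO, DMSO+EGF and cordycepin+EGF (2 libraries a group, filled squares where the adjusted p was under 0.05). MYC lies far left of 0 in the first 2 panels, most members lie right of 0 there, and 28 of the 40 lie left of 0 with cordycepin+EGF.

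With EGF the same contrast between lines held for MYC. Its RPKM was 44.9 and 45.8 in WT DMSO+EGF and 11.2 and 9.83 in AMPK KO DMSO+EGF, a log2 fold change of -2.04 (adjusted p 0.0199, SE 0.284), and without any 1 of the 4 libraries the adjusted p was 0.123 to 0.215. Of the 40 members, 32 were higher in AMPK KO and 8 lower, with a median of 0.15 against -0.0047 over all genes, of which 49.5% were higher. With an adjusted p under 0.05, 0 were higher (0.929% of all genes) and 0 lower (0.807% of all genes). Counts at an unadjusted p under 0.05 were 10 higher (11.1% of all genes) and 4 lower (11.4% of all genes), and 4 members passed when limma voom was run on recovered reads, UTP4 and UTP20 higher (5.75% of all genes) and PES1 and WDR75 lower (6.01% of all genes). Both AMPK KO libraries lay above both WT libraries in 23 members (31.3% of all genes, 37.2% of protein-coding genes) and below them in 7 (31.6% of all genes, 36% of protein-coding genes). The study's own rule took 0 members as higher (1.04% of all genes) and PES1 and WDR75 as lower (2.37% of all genes). The members with the smallest p were PES1, UTP4, a protein of the complex that WDR75 also belongs to, and UTP20, a large small-subunit processome protein. UTP20 RPKM was 19.6 and 24.2 in WT DMSO+EGF and 30.3 and 31.5 in AMPK KO DMSO+EGF (log2 fold change 0.51, SE 0.128, adjusted p 0.0738).

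With cordycepin most members had the opposite sign. Of the 40 members, 12 were higher and 28 lower in AMPK KO cordycepin+EGF than in WT cordycepin+EGF, with a median of -0.16 against 0.01 over all genes, of which 51.6% were higher. Over protein-coding genes the median was -0.017 and 47.5% were higher, so the members had the sign of protein-coding genes and a lower median. The adjusted p was under 0.05 for 0 higher (0.0453% of all genes) and 0 lower members (0.0725% of all genes), and the unadjusted p for 1 higher (7.1% of all genes) and 4 lower (6.64% of all genes). Voom on recovered reads called 0. Both AMPK KO libraries lay above both WT libraries in 7 members (23.7% of all genes, 24.4% of protein-coding genes) and below them in 13 (22.1% of all genes, 27.7% of protein-coding genes). Leaving out WT cordycepin+EGF replicate 3 changed the split to 17 higher and 23 lower and the median to -0.04. BYSL (bystin), which acts late on the small subunit, had the smallest p. Its RPKM was 27.7 and 42.1 in WT and 20.1 and 22.5 in AMPK KO, a log2 fold change of -0.65 (adjusted p 0.262, SE 0.206). MYC differed by -0.48 here (p 0.127 in the limma fit, adjusted p 0.471), with 11.3 and 11.1 RPKM in WT and 5.27 and 11.4 RPKM in AMPK KO.

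Averaged over the 3 treatments, MYC was lower in AMPK KO, with a log2 fold change of -1.42 (limma adjusted p 0.00346, SE 0.164). This MYC average ran from -1.59 to -1.25 when single libraries were left out. On the same average, 22 members were higher in AMPK KO (50.3% of all genes) and 18 lower, and the median was 0.01. Of these, 2 were higher with an adjusted p under 0.05 (2.8% of all genes) and 0 were lower (1.54% of all genes). At an unadjusted p under 0.05, 9 were higher (10.9% of all genes) and 2 lower (9.44% of all genes), and in every member some of the 6 AMPK KO libraries overlapped with WT (1.65% of all genes lay wholly higher and 1.01% wholly lower). The split was 26 higher and 14 lower without WT DMSO replicate 3 (median 0.07) and 18 higher and 22 lower without WT DMSO replicate 2 (median -0.03). The first was RRP9, with a log2 fold change of 0.36 (adjusted p 0.0325, SE 0.0742). In the DMSO+EGF libraries its RPKM was 14.0 and 15.5 in WT and 18.9 and 20.0 in AMPK KO, and with cordycepin+EGF 15.4 and 17.7 in WT and 16.6 and 17.5 in AMPK KO. RPKM of the lines overlapped only with cordycepin. NOC4L was the second, with 0.29 (adjusted p 0.0418, SE 0.0649). Its RPKM was 30.9 and 30.5 in WT DMSO+EGF, 33.2 and 35.3 in AMPK KO DMSO+EGF, 28.4 and 35.6 in WT cordycepin+EGF and 31.3 and 32.9 in AMPK KO cordycepin+EGF, so that most of its average came from DMSO. Over 21 alternatives the adjusted p ran from 0.0156 to 0.119 for RRP9 and from 0.0246 to 0.15 for NOC4L. The RRP9 call held without AMPK KO DMSO replicate 2 or WT DMSO replicate 3 and was lost without any other single library, at log2 fold changes of 0.30 to 0.38. For NOC4L the call held without WT DMSO replicate 3 or WT cordycepin+EGF replicate 3 and was lost without any other, at 0.24 to 0.31.

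Other members held one sign of the line difference in all treatments without passing the average test in the limma fit. WDR12, which forms a large-subunit complex with PES1 and BOP1, had log2 fold changes of 0.40, 0.42 and 0.42 in DMSO, DMSO+EGF and cordycepin+EGF. Its RPKM was 9.35 and 7.46, then 7.39 and 8.77, then 6.24 and 7.85 in WT, and 10.5 and 12.3, then 11.6 and 10.1, then 8.43 and 10.5 in AMPK KO. AMPK KO lay above WT at each treatment, and the average was 0.42 (adjusted p 0.0545, SE 0.101). NOP58, a core C/D-box snoRNP protein, and GNL3 (nucleostemin), a nucleolar GTP-binding protein, also lay above WT in both libraries of each treatment once RPKM was scaled to the upper quartile. Their averages were 0.32 (adjusted p 0.0687, SE 0.0826) and 0.40 (adjusted p 0.125, SE 0.129). All 3 passed with voom on recovered reads (adjusted p 0.0101 for WDR12, 0.0187 for NOP58 and 0.0329 for GNL3), where 5.81% of all genes were called higher, and NOP58 also passed with a replicate block (adjusted p 0.024). These 3 are 7.5% of the members, and the share was 3.18% over all genes tested and 4.13% over protein-coding genes. On means alone 8 members (20.0%) were higher in AMPK KO at all 3 treatments, against 13.6% of all genes. NPM1 was the one member with a lower mean at all 3 (-0.09, -0.11 and -0.04), which is 2.5% of the members against 11.4% of all genes.

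After EGF the list split almost evenly in AMPK KO, and the sign of its median changed with single libraries in both lines. In WT, 23 members were higher and 17 lower after EGF, with a median log2 fold change of 0.07 against 0.02 over all genes, of which 52.3% were higher. The adjusted p was under 0.05 for 0 members in either direction (0.0227% of all genes higher, 0% lower) and voom called 0. At an unadjusted p under 0.05, 2 were higher (6.18% of all genes) and 0 lower (3.53% of all genes). Both DMSO+EGF libraries lay above both DMSO libraries in 7 members (18.7% of all genes) and below them in 6 (18% of all genes). The 2 higher were NOC4L (0.40, SE 0.112, adjusted p 0.438) and PES1 (0.74, SE 0.296, adjusted p 0.503). The PES1 value hung on single WT DMSO libraries, with 0.28 without replicate 3 (adjusted p 0.734) and 1.196 without replicate 2 (adjusted p 0.0505). By p the third was UTP20 (-0.27, adjusted p 0.523), at -0.14 without WT DMSO replicate 3 and -0.13 to -0.41 without a WT DMSO+EGF library. UTP20 RPKM was 23.5 and 28.5 in WT DMSO, and of its WT DMSO+EGF values 19.6 lay below and 24.2 within that range. These values are unscaled, and once RPKM was scaled to the upper quartile the groups did not overlap for UTP20. Its other values were 22.6 and 25.4 RPKM in WT cordycepin+EGF, 28.9 and 29.3 RPKM in AMPK KO DMSO, and 22.996 and 21.8 RPKM in AMPK KO cordycepin+EGF. The 4 AMPK KO libraries without cordycepin stood above all 8 others. Without the shallow WT DMSO replicate 3, 28 members were higher and 12 lower (median 0.12 against -0.03 over all genes), and without replicate 2, 17 were higher and 23 lower (median -0.04 against 0.03).

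In AMPK KO, 22 were higher and 18 lower after EGF, with a median of 0.01 against 0.01 over all genes, of which 51.4% were higher. No member passed the adjusted (0.0136% of all genes higher, 0% lower) or the unadjusted threshold (1.03% higher, 1.4% lower), and voom on recovered reads called 0 as well. Both libraries lay above both DMSO libraries in 9 members (20.2% of all genes) and below them in 6 (18.7% of all genes). The 3 smallest p-values belonged to BOP1, PNO1 and NOLC1. BOP1, the partner of PES1 and WDR12, had 23.1 and 28.7 RPKM in AMPK KO DMSO and 20.4 and 20.0 RPKM in AMPK KO DMSO+EGF (log2 fold change -0.33, SE 0.17). PNO1, which helps to recruit the dimethylase of small-subunit RNA, had 6.62 and 6.23 RPKM before and 8.001 and 6.97 RPKM after EGF (0.21, SE 0.123). NOLC1 had 96.1 and 95.8 RPKM before and 108 and 106 RPKM after (0.17, SE 0.127), and all 3 adjusted p-values were at 1 after rounding. BOP1 in WT went from 17.6 and 22.7 RPKM in DMSO to 24.8 and 26.5 RPKM in DMSO+EGF, and PNO1 from 7.82 and 7.46 RPKM to 7.77 and 7.14 RPKM. With cordycepin+EGF, BOP1 had 23.5 and 32.7 RPKM in WT and 20.3 and 20.7 RPKM in AMPK KO, and PNO1 7.24 and 6.59 RPKM and 6.36 and 6.55 RPKM. PNO1 thus stayed in a narrow range, while BOP1 was widest in WT. MYC had log2 fold changes of 0.87 with EGF in WT (limma p 0.0134) and 0.57 in AMPK KO (limma p 0.0752), both p-values unadjusted. Neither passed after adjustment (adjusted p 0.482 in WT and higher in AMPK KO). The difference of the EGF effect between lines was above 0 in 16 members (48.9% of all genes) and below 0 in 24, with a median of -0.08, and without WT DMSO replicate 3 in 14 and 26. Without WT DMSO replicate 2 this difference was above 0 in 21 and below 0 in 19, and likewise without WT DMSO+EGF replicate 3. It passed in 0 members by limma (0% of all genes) and by voom, and its unadjusted p was under 0.05 for 1 higher (3.3% of all genes) and 2 lower (5.38% of all genes).

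Cordycepin was compared with DMSO before EGF. In AMPK KO, 33 members were lower and 7 higher with cordycepin+EGF than with DMSO+EGF, with a median log2 fold change of -0.26 against 0.06 over all genes, of which 55.1% were higher. Over protein-coding genes the median was -0.031 and 46.6% were higher. The members thus had the sign of protein-coding genes and not that of all genes, with a lower median. In both AMPK KO cordycepin+EGF libraries 28 members lay below both DMSO+EGF libraries (27% of all genes, 37.1% of protein-coding genes) and 6 lay above (32.2% of all genes, 29.3% of protein-coding genes). No single difference passed. With an adjusted p under 0.05, 0 were lower (0.0861% of all genes) and 0 higher (0.385% of all genes), and with an unadjusted p under 0.05, 11 were lower (10.1% of all genes, 15.1% of protein-coding genes) and 2 higher (11.7% of all genes). Voom on recovered reads called 1 member, DDX21, lower (2.39% of all genes). The split was 33 to 7 also with RPKM as deposited and with median-ratio scaling, 31 to 9 without AMPK KO cordycepin+EGF replicate 2 and 33 to 7 without replicate 3 of that group.

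All snoRNP genes (8 of 8, median -0.31) and all multifunctional nucleolar genes (4 of 4, median -0.30) had lower means with cordycepin in AMPK KO. So did 5 of 6 polymerase I genes (median -0.27) and 10 of 11 small-subunit genes (median -0.34), while large-subunit genes were split, with 6 of 11 lower (median -0.15). UTP4 had the smallest p. Its RPKM was 29.4 and 29.5 in AMPK KO DMSO+EGF and 20.8 and 21.4 in AMPK KO cordycepin+EGF, a log2 fold change of -0.43 (adjusted p 0.0852, SE 0.106). The 4 values form 2 tight pairs. DDX21, which also works in RNA polymerase I and II transcription, had 100 and 98.9 RPKM and then 56.4 and 69.1 RPKM, with -0.62 (adjusted p 0.0868, SE 0.158). NOLC1 had 108 and 106 RPKM and then 70.0 and 87.1 RPKM, with -0.41 (adjusted p 0.126, SE 0.127) and -0.26 without AMPK KO cordycepin+EGF replicate 2. The polymerase I genes included RRN3 (-0.53), TCOF1 (treacle, -0.39), POLR1B (-0.34), POLR1C (-0.20) and POLR1A (-0.10). In the DMSO libraries UTP4 had 22.98 and 26.2 RPKM in WT and 28.5 and 28.96 RPKM in AMPK KO, and DDX21 had 81.5 and 94.4 RPKM and 87.95 and 90.4 RPKM. NOLC1 had 94.9 and 107 RPKM in WT DMSO. The AMPK KO cordycepin+EGF values of UTP4 lay below those of both DMSO groups. FBL had 328 and 304 RPKM before and 202 and 253 RPKM with cordycepin (-0.43, SE 0.272). Libraries of AMPK KO cordycepin+EGF also held the library with the largest share of reads on long non-coding RNA genes (5.87% in replicate 2, against 3.82% to 4.98% in the 10 libraries of other groups and 4.34% in replicate 3), and its part in the result was not tested.

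In WT the direction with cordycepin changed with single libraries. Means of 23 members were higher and of 17 lower, with a median of 0.07 against 0.03 over all genes, of which 53.5% were higher (49.1% of protein-coding genes). The adjusted p was under 0.05 for 0 members (0% of all genes higher, 0.00453% lower), and the unadjusted p for 0 higher (8.86% of all genes) and 3 lower (7.13% of all genes). Both cordycepin libraries lay above both DMSO+EGF libraries in 8 members (29.2% of all genes, 28.3% of protein-coding genes) and below them in 7 (24.7% of all genes, 31.6% of protein-coding genes). The study's own rule took 0 members as higher (1.62% of all genes) and PES1 and WDR75 as lower (0.988% of all genes). Voom on recovered reads called 2, PES1 and WDR75, both lower (1.81% of all genes). Without WT cordycepin+EGF replicate 3 the split was 12 higher and 28 lower (median -0.07), and with WT DMSO+EGF replicate 2 left out 19 and 21 (median -0.03), the sign seen in AMPK KO. Without WT DMSO+EGF replicate 3 it was 30 and 10 (median 0.12). For UTP4, WT RPKM was 21.0 and 22.9 with DMSO+EGF and 22.9 and 26.9 with cordycepin+EGF (0.22, SE 0.106). DDX21 had 67.1 and 84.3 and then 66.3 and 83.3 RPKM (0.03, SE 0.158), and the pairs lay almost on each other. NOLC1 had 87.3 and 86.2 and then 87.5 and 95.7 RPKM (0.12, SE 0.127).

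**Figure D3:**
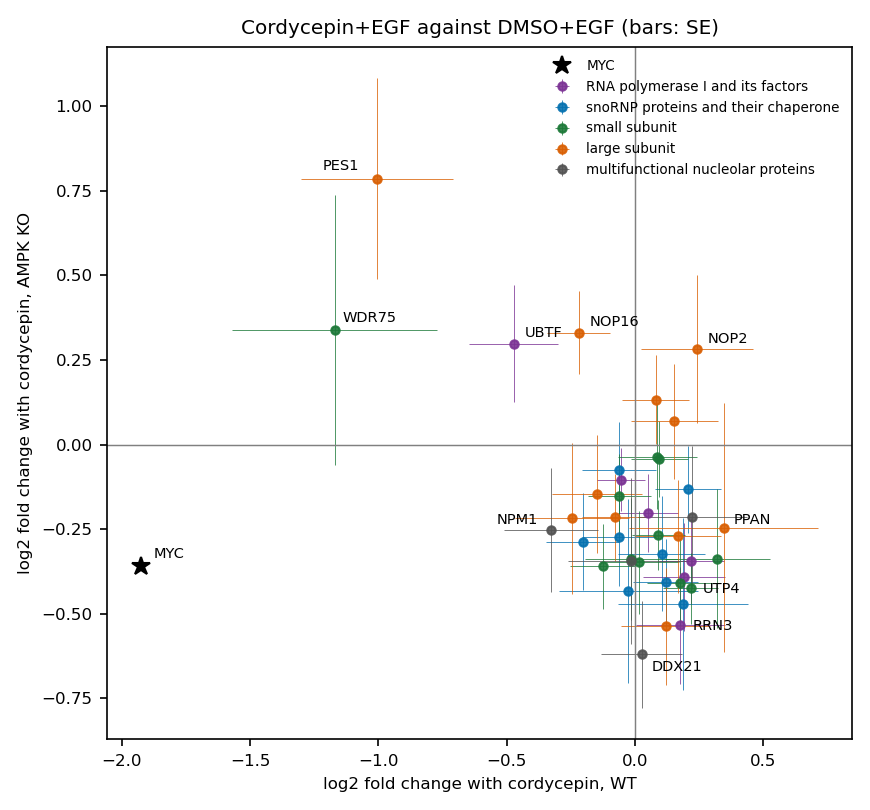
Log2 fold change of cordycepin+EGF over DMSO+EGF in WT (x axis) and AMPK KO (y axis) for 40 ribosome biogenesis genes, coloured by role, and MYC (star), with bars of 1 SE. The main cloud lies below 0 on the y axis and around 0 on the x axis, PES1, WDR75, UBTF and NOP16 lie in the upper left, and MYC lies far left.

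Side by side, 20 members (50.0%) were lower with cordycepin in AMPK KO and higher in WT, a combination found in 26.5% of all genes tested and 31.5% of protein-coding genes, and 13 (32.5%, against 18.4% of all genes and 21.9% of protein-coding genes) were lower in both lines. These numbers rested on the WT libraries. Without WT cordycepin+EGF replicate 3, 11 members (27.5%, against 27.5% of protein-coding genes) were lower in AMPK KO and higher in WT and 22 were lower in both, while without WT DMSO+EGF replicate 3 the numbers were 27 and 6. The difference of the cordycepin effect between lines was below 0 in 31 members and above 0 in 9 (51.2% of all genes, 47.8% of protein-coding genes). Its median was -0.29, against 0.02 over all genes and -0.032 over protein-coding genes. This direct test passed in 0 members (0% of all genes in either direction). Its unadjusted p was under 0.05 for 9 below 0 (10.5% of all genes, 14.6% of protein-coding genes) and 4 above 0 (10.9% of all genes, 13.2% of protein-coding genes). The study's own rule took 2 members as above 0, PES1 and WDR75 (5.33% of all genes), and 0 as below 0 (2.67% of all genes). The smallest adjusted p was 0.122, shared by PES1 (1.79, SE 0.418) and UTP4 (-0.64, SE 0.15). Voom on recovered reads called 6 members for this difference: UTP4, UTP20 and DDX21 below 0 (4.38% of all genes) and PES1, WDR75 and UBTF above 0 (5.45% of all genes). Leaving out WT cordycepin+EGF replicate 3 brought the median to -0.12.

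PES1, WDR75, UBTF and NOP16, a large-subunit factor, were the 4 members that were higher with cordycepin in AMPK KO and lower in WT (10.0%, against 28.1% of all genes, and 6 without WT cordycepin+EGF replicate 3). PES1 RPKM was 29.7 and 15.6 in WT DMSO, 33.3 and 40.9 in WT DMSO+EGF and 16.6 and 18.7 in WT cordycepin+EGF. In AMPK KO it was 12.4 and 15.6 in DMSO, 17.4 and 13.7 in DMSO+EGF and 21.3 and 31.9 in cordycepin+EGF. Cordycepin gave a log2 fold change of -1.005 in WT (adjusted p 0.267, SE 0.296) and 0.79 in AMPK KO (adjusted p 0.176, SE 0.296). Both WT DMSO+EGF libraries stood above every AMPK KO library, and the gap between the WT DMSO libraries was wider than that between the means of the lines in DMSO.

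WDR75 also had a wide gap between the WT DMSO libraries. Its RPKM was 12.05 and 4.09 in WT DMSO, 9.44 and 8.47 in WT DMSO+EGF and 3.48 and 3.67 in WT cordycepin+EGF, while the AMPK KO values were 3.20 and 3.41, then 4.17 and 3.42, then 3.70 and 6.07. The difference with cordycepin in WT was -1.17 (adjusted p 0.272, SE 0.399). WT DMSO replicate 3, the shallow library, lay among the AMPK KO values and replicate 2 with WT DMSO+EGF. UBTF had 15.7 and 11.4 RPKM in WT DMSO, 16.1 and 18.4 RPKM in WT DMSO+EGF and 11.4 and 12.3 RPKM in WT cordycepin+EGF. In AMPK KO its values were 12.1 and 12.96, then 12.8 and 12.2, then 12.97 and 17.3 RPKM, and cordycepin in WT gave -0.47 (adjusted p 0.279, SE 0.173). All 4 had their highest group mean in WT DMSO+EGF, as did MYC. The 4 were picked as lower with cordycepin than with DMSO+EGF in WT, so this is partly built into the choice. NOP56, NPM1 and DKC1 also had their highest group mean there (62.3, 60.4 and 17.7 RPKM). MYC had a cordycepin difference of -1.93 in WT (adjusted p 0.177, SE 0.284) and -0.36 in AMPK KO (adjusted p 0.485, SE 0.284). The WT DMSO+EGF libraries enter the EGF, cordycepin and line comparisons alike, so these values are not independent of each other.

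**Figure D4:**
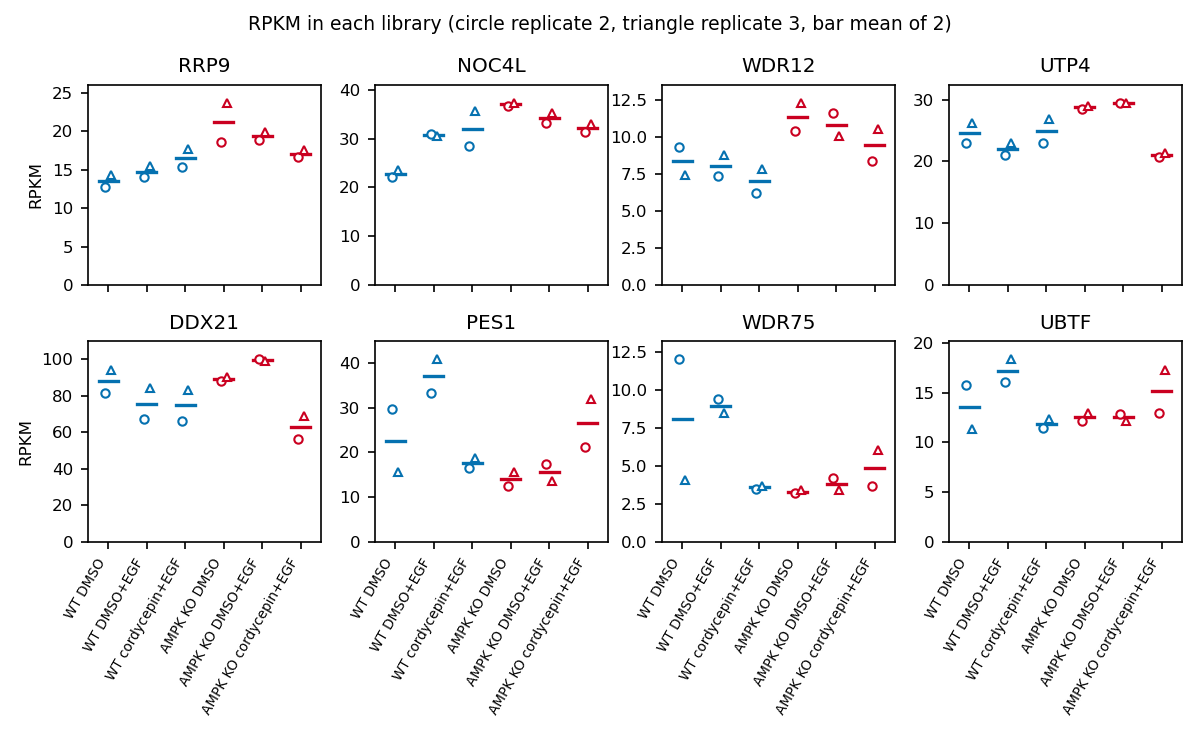
RPKM of 8 ribosome biogenesis genes in 12 libraries (circles replicate 2, triangles replicate 3, bars the mean of 2, WT blue and AMPK KO red, each axis from 0). RRP9, NOC4L and WDR12 are lower in WT DMSO than in AMPK KO DMSO, UTP4 and DDX21 have their lowest group means in AMPK KO cordycepin+EGF, and PES1, WDR75 and UBTF are highest in WT DMSO+EGF on the group mean.

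In WT the levels of the list overlapped between groups, while in AMPK KO the list was lower with cordycepin+EGF than at the other treatments. The median over the 40 genes of each library's deviation from the gene mean, in log2 units, was -0.12 and 0.04 in WT DMSO, -0.11 and 0.01 in WT DMSO+EGF and -0.09 and 0.10 in WT cordycepin+EGF. In AMPK KO it was 0.04 and 0.17 in DMSO, 0.13 and 0.10 in DMSO+EGF and -0.18 and -0.07 in cordycepin+EGF. Replicate 3 lay above replicate 2 in 5 of the 6 groups, and the pooled SD between replicates was 0.0958. The WT medians ran from -0.12 to 0.10, and the WT groups overlapped. Both AMPK KO cordycepin+EGF medians lay below those of all AMPK KO libraries at the other treatments. The 40 genes took 0.696% to 0.864% of recovered reads. AMPK KO DMSO replicate 3 was the highest library for 12 members and AMPK KO cordycepin+EGF replicate 2 the lowest for 16, followed by WT DMSO replicate 2 for 11. MYC by contrast ran from 5.27 to 45.8 RPKM, and the group with the most MYC, WT DMSO+EGF, was not the group with the highest list median.

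**Figure D5:**
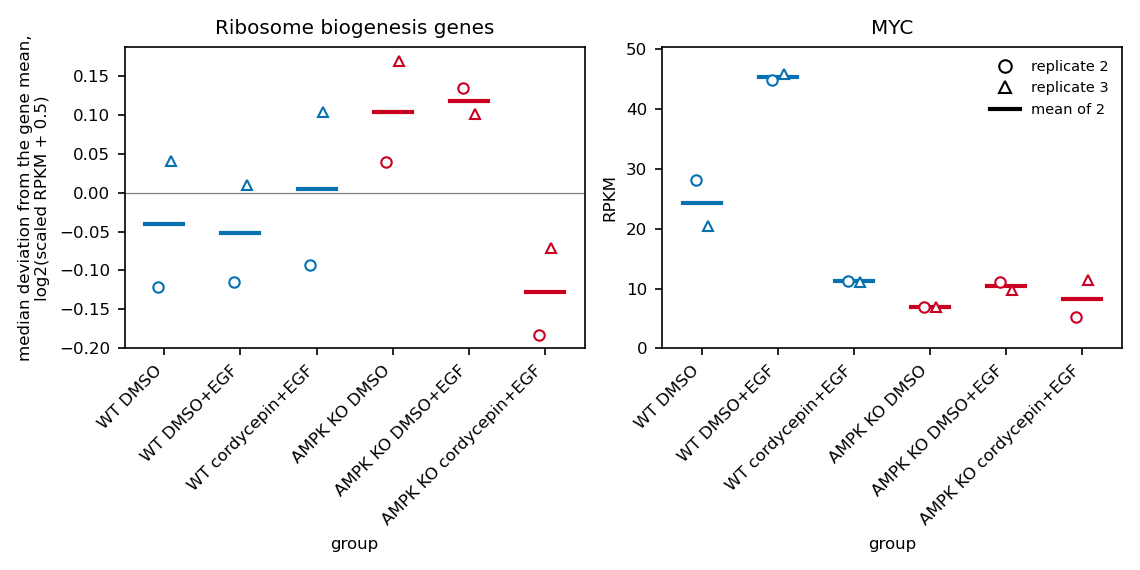
Left, median deviation of 40 ribosome biogenesis genes from their own means, in log2 units, in each library. Right, MYC in RPKM; circles are replicate 2, triangles replicate 3, bars the mean of 2, WT blue and AMPK KO red. MYC is highest in WT DMSO+EGF at 44.9 and 45.8 RPKM, while the list medians there are -0.11 and 0.01.

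The other genes of the pathway had medians of the same sign and nearer 0 in the line comparisons at each treatment and in both cordycepin comparisons. All 100 further ribosome biogenesis genes were tested. In DMSO 57 were higher in AMPK KO and 43 lower, with a median of 0.04. None passed in either direction (0.281% of all genes higher, 0.159% lower). At an unadjusted p under 0.05, 9 were higher (12% of all genes) and 12 lower (9.29% of all genes). With EGF 61 were higher and 39 lower (median 0.06), and with cordycepin+EGF 31 higher and 69 lower (median -0.13), again with 0 passing at either treatment. The unadjusted p was under 0.05 with EGF for 11 higher (11.1% of all genes) and 10 lower (11.4% of all genes). With cordycepin+EGF it was under 0.05 for 6 higher (7.1% of all genes) and 13 lower (6.64% of all genes, 8.87% of protein-coding genes). Cordycepin in AMPK KO gave 75 lower and 25 higher means (median -0.18), with both libraries below both DMSO+EGF libraries in 60 (27% of all genes, 37.1% of protein-coding genes), and in WT 41 lower and 59 higher (median 0.04). In neither line did any of the 100 pass. At an unadjusted p under 0.05, 6 were higher (11.7% of all genes) and 24 lower (10.1% of all genes, 15.1% of protein-coding genes) in AMPK KO. In WT 1 was higher (8.86% of all genes) and 11 lower (7.13% of all genes, 10% of protein-coding genes). Averaged over treatments, 42 were higher and 58 lower, with a median of -0.025 where the members had 0.01. Of these, 2 passed as higher in AMPK KO (2.8% of all genes), LTV1, an export adaptor of the small subunit (0.50, SE 0.0946, adjusted p 0.0238), and the helicase DDX51 (0.42, SE 0.0804, adjusted p 0.0247).

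Of 16 textbook MYC targets outside ribosome biogenesis, 10 were higher and 6 lower in AMPK KO DMSO, with 0 passing and a median of 0.095. At an unadjusted p under 0.05, 3 were higher (12% of all genes) and 1 lower (9.29% of all genes). With DMSO+EGF 10 were higher in AMPK KO and 6 lower (median 0.12). There IMPDH2, an enzyme of guanine nucleotide synthesis, was the 1 that passed (0.60, SE 0.121, limma adjusted p 0.0496), as higher (0.929% of all genes). With cordycepin+EGF 5 were higher in AMPK KO and 11 lower (median -0.15), with 0 passing (0.0453% of all genes higher, 0.0725% lower). With an adjusted p under 0.05 on average over treatments, 1 was higher in AMPK KO (2.8% of all genes) and 1 lower (1.54% of all genes). These were IMPDH2 (0.48, SE 0.0701, adjusted p 0.00835) and the cell cycle gene CCND2 (-0.61, SE 0.135, adjusted p 0.041). With cordycepin 14 of the 16 were lower in AMPK KO (median -0.26) and 10 of 16 in WT (median -0.08), with 0 passing. At an unadjusted p under 0.05, 0 were higher (11.7% of all genes) and 4 lower (10.1% of all genes, 15.1% of protein-coding genes) in AMPK KO. In WT 1 was higher (8.86% of all genes) and 1 lower (7.13% of all genes).

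Members with and without the E-box in the promoter window are given side by side for some comparisons. In DMSO the median log2 fold change of AMPK KO over WT was 0.19 in the 15 with CACGTG and 0.19 in the 19 without. With cordycepin in AMPK KO it was -0.32 in the 15 and -0.25 in the 19, and 13 of the 15 and 15 of the 19 had lower means. Groups did not overlap there in all 15 with the motif (13 lower, 2 higher) and in 11 lower and 3 higher of the 19. The shares were 27% lower and 32.2% higher over all genes, and 37.1% and 29.3% over protein-coding genes. Medians of AMPK KO over WT were 0.11 and 0.14 with DMSO+EGF and -0.13 and -0.036 with cordycepin+EGF. Those of the difference in the cordycepin effect between lines were -0.34 and -0.21. Members hosting snoRNA genes had medians of 0.31 in the line comparison in DMSO and -0.26 with cordycepin in AMPK KO, and the 32 others 0.19 and -0.26. These splits are descriptions without a test.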

How the data were processed

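Ribosome-depleted, stranded RNA from 12 libraries was sequenced by the authors as paired reads of 150 bases, mapped to GRCh38.p13 and counted with Rsubread, and the deposited values are RPKM per Ensembl gene. The authors discarded replicate 1, which they found to be an outlier in every condition. Of 26058 listed genes, 26029 matched GENCODE release 44, and 2 rows without a gene were left out. RPKM steps gave whole reads, within 0.05, for 96.25% of genes at the annotated length and 99.14% after a length search. Each library was brought to a common upper quartile, and limma worked on log2(scaled RPKM + 0.5), which understates fold changes of low genes. The 22067 genes that averaged 0.5 RPKM or more were fitted with limma 3.58.1 in R 4.3.3 (group means, eBayes with trend, two-sided, 6 residual degrees of freedom, 8.96 after moderation), and p-values of each of 10 comparisons were adjusted by Benjamini-Hochberg. The script was tested on simulated data. Library values are given for members with an adjusted p under 0.05 and for the 3 smallest p-values of 5 comparisons, and those of BYSL and FBL were added after their values were seen. The members, lists and this rule were chosen with earlier results of these data known. Samples were grouped by their labels. Other settings tried were a pseudocount of 0.1 or 1, testing every gene or only those averaging 1 RPKM, unscaled or median-ratio scaled values, fits to the compared groups alone, a replicate block over or within lines, no trend, voom on recovered reads, and each library left out in turn. Reads carry no molecular identifiers.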

Additional observations from a re-analysis of the deposited data

How the results depend on the processing

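Fits changed the counts of members that passed more than they changed the directions. In AMPK KO against WT in DMSO the count of 1 became 0 with a pseudocount of 1, a filter at a mean RPKM of 1, median-ratio scaling, only the compared groups or no trend, became 4 with voom on recovered reads, and ran from 0 to 7 when single libraries were left out (7 without WT DMSO replicate 3). With EGF the count of 0 became 3 with only the compared groups and 4 with voom, and stayed 0 without any single library. On average over treatments the count of 2 became 1 with RPKM as deposited or median-ratio scaling, 0 without trend and 8 with voom, and ran from 0 to 6 when libraries were left out (6 without WT DMSO replicate 3). Voom gave 2 for cordycepin in WT, 1 for cordycepin in AMPK KO and 6 for the difference between lines, where only the compared groups gave 2. Calls over all genes moved too: in DMSO they were 0.44% of genes tested as reported, 8.14% with voom and 13.9% without WT DMSO replicate 3, and with voom 11.8% with EGF, 10.7% on average, 3.58% and 5.38% for cordycepin in WT and AMPK KO and 9.83% for the difference between lines, where only the compared groups gave 5.11%.

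Medians over the members, with single libraries left out, ran from 0.079 to 0.28 for AMPK KO against WT in DMSO, 0.083 to 0.19 with EGF, -0.25 to -0.040 with cordycepin+EGF and -0.03 to 0.07 on average. For EGF they ran from -0.036 to 0.13 in WT and -0.084 to 0.081 in AMPK KO, for cordycepin from -0.073 to 0.21 in WT and -0.34 to -0.18 in AMPK KO, and for the differences between lines from -0.14 to 0.031 for EGF and -0.40 to -0.12 for cordycepin. MYC reversed in 2 results without AMPK KO cordycepin+EGF replicate 2, to 0.040 for AMPK KO against WT with cordycepin+EGF and to 0.16 for cordycepin in AMPK KO (-0.996 and -0.88 without replicate 3 of that group). The MYC difference between lines averaged over treatments kept its sign, at -1.59 to -1.25 with single libraries left out. The MYC call in DMSO was lost without AMPK KO DMSO replicate 2 or 3 or WT DMSO replicate 2 and had an adjusted p of 0.0028 to 0.416 over 14 alternatives.

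Same-numbered libraries deviated together in some pairs of groups (r of -0.122 to 0.322 over 15 pairs, 7 of them over 0.1). No label says whether a number marks samples handled together, and these values do not settle it. The main fit had no replicate block, and a fit with a block was run beside it. A replicate block raised the average count from 2 to 4 and changed no other count of members that passed, and it moved the adjusted p of MYC in DMSO to 0.0528. The median SE of a member's log2 fold change was 0.159 between single groups and 0.0917 on the average over treatments. Differences that are small beside these SEs could not be resolved, and adjustment over all genes tested raises the bar further.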
